A study of Mus musculus with 24 samples.

Results

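The libraries described here are those of C2C12 cells given a non-targeting siRNA (siCont), the control arm of a study that depleted Keap1, Fem1b or both. C2C12 is a mouse myoblast line, derived from skeletal muscle precursor cells, that divides in serum and can be made to fuse into myotubes. All cells of the series were kept undifferentiated and below confluence in DMEM with fetal bovine serum and were collected 48 h after siRNA treatment. The arm was chosen by its label alone and held 6 of the 24 deposited samples, which are 3 of 12 libraries, each sequenced in 2 runs. The labels name triplicates without saying whether they came from separate cultures, so the spread between libraries may be partly technical. Apart from a check of the labels, no group was set against another, and every value below is a level, not a change.

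A myoblast is a committed muscle precursor that has not yet left the cell cycle. Commitment is carried by MYOD1 and MYF5, basic helix-loop-helix factors that bind E-box sequences together with E proteins, while myogenin (MYOG) acts later, when the cells stop dividing and build sarcomeres. The study concerns redox control in these cells: KEAP1 recruits the transcription factor NRF2 to a ubiquitin ligase built on CUL3, which leads to its degradation, and FEM1B is a receptor of a ligase built on CUL2. Receptors bring the substrate, adaptors or the receptor itself link to the cullin, and a RING protein at the other end of the cullin recruits the ubiquitin-carrying enzyme.

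The control siRNA is printed because every culture described here received it. Its strand as given in the series has 19 bases:
siCont: ugguuuacauguuuucuga
Neither this sequence nor its reverse complement was found in any of 141767 annotated mouse transcripts (GENCODE M21), and the longest run shared with a transcript was 15 bases on either strand. Keap1 and Fem1b, the genes targeted elsewhere in the series, checked the labels. Keap1 was at 4.69 to 9.04 TPM in the 6 libraries with its siRNA and at 28.6 to 33.4 TPM in the 6 libraries without it. Fem1b was at 2.63 to 3.38 TPM in the 6 libraries with its siRNA and at 19.2 to 22.8 TPM in the 6 libraries without it. The siCont libraries lay in the range of the libraries without that siRNA for both genes.

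Levels are in TPM, a length-corrected share of the transcript pool scaled to the same total in every run, added up for each gene and averaged over both runs. The siCont libraries 1, 2 and 3 held 39863725, 33171287 and 43256322 estimated counts. Over the 8330 genes with a mean of 10 TPM or more, the libraries differed pairwise by a median of 5.04% to 7.43%, and both runs of a library by 5.48% to 5.97%. The median coefficient of variation of these genes between libraries was 5.70%. Differences between genes that are smaller than this cannot be ranked with 3 libraries. Transcripts under 10 TPM rest on fewer reads and varied more. In RNA from a whole culture, few cells with much of a transcript and many cells with little of it cannot be told apart.

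At 1 TPM or more in each library, 11425 genes were detected, of which 11046 were protein-coding. These were 50.1% of the 22028 protein-coding genes in the tables, and this share is the background for the counts of detected members given below. Another 4267 protein-coding genes (19.4%) had no count in any siCont library. Detected protein-coding genes had a median of 24.9 TPM, with the middle 50 percent of them between 9.65 and 57.3 TPM. There were 1589 genes at 100 TPM or more and 162 at 1000 TPM or more. The 3 levels used below as marks (1, 100 and 1000 TPM) are descriptive.

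The pool was spread over many genes. The 10 most abundant genes held 7.0% ± 0.0678 of all TPM (SD, n = 3) and the 100 most abundant 31.1% ± 0.598. It took 67 genes to reach 25% of the TPM, 340 to reach 50%, 1802 to reach 75% and 4589 to reach 90%. The most abundant transcripts were short, with a median length of 681 bases for the main transcript of the 100 most abundant genes, against 2525 bases for all genes at 10 TPM or more.

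**Figure D1:**
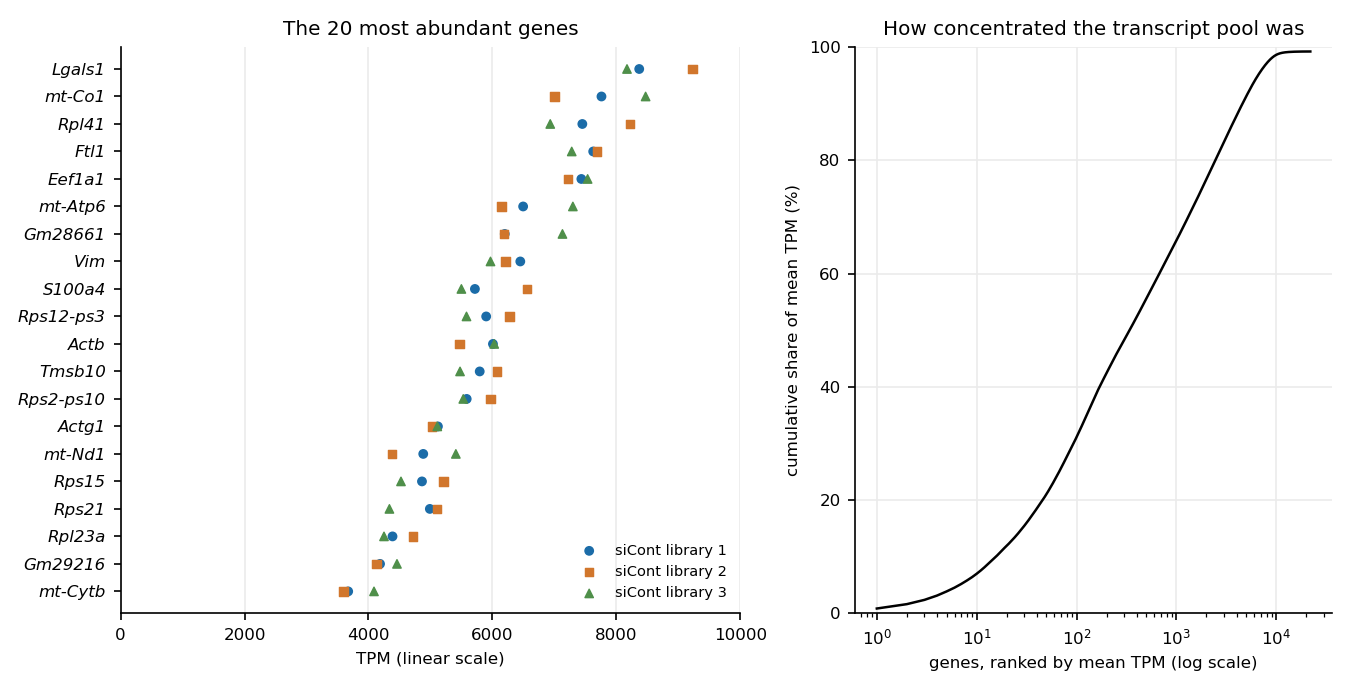
Left, TPM (linear axis from 0) of the 20 genes of highest mean level in the 3 siCont libraries, each symbol a library. Right, cumulative share of mean TPM (%) against genes ranked by mean TPM on a log axis. Library 2 (squares) lies highest for Lgals1 at 9225 TPM and library 3 (triangles) highest for mt-Co1 at 8470 TPM, and the curve passes 31.1% at 100 genes.

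Lgals1, which encodes the galactoside-binding lectin galectin-1, stood first. It had 8367, 9225 and 8170.1 TPM in libraries 1, 2 and 3 (8587 ± 561, SD, n = 3). Most other nuclear genes among the first 20 serve translation or the cytoskeleton. The translation group held Eef1a1 (elongation factor 1 alpha, which delivers charged tRNA to the ribosome) at 7434, 7221 and 7535 TPM and the ribosomal protein genes Rpl41, Rps15, Rps21 and Rpl23a. The cytoskeletal group held Vim, Actb, Actg1 and Tmsb10. Ftl1, the light chain of the iron store ferritin, had 7625, 7691 and 7279 TPM (7532 ± 221). S100a4, a calcium-binding protein of motile mesenchymal cells, had 5717, 6558 and 5499 TPM (5924 ± 559). Lgals1, Rpl41, S100a4, Rps15, Rps21, Rpl23a and Tmsb10 were all highest in library 2, whereas mt-Co1, mt-Atp6, mt-Nd1 and mt-Cytb, which encode respiratory chain and ATP synthase subunits, were all highest in library 3 and lowest in library 2. The first places did not separate cleanly: mt-Co1, Rpl41, Ftl1 and Eef1a1 overlapped in their ranges, and the lowest library of Lgals1 lay within the ranges of mt-Co1 and Rpl41.

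Genes of the cytosolic ribosome took 15.3% ± 0.868 of all TPM, with 15.0%, 16.2% and 14.5% in libraries 1, 2 and 3. Of these genes, 81 of 84 measured were detected and 79 stood at 100 TPM or more, with a median of 1564 TPM. Rpl41, a very small basic ribosomal protein, was highest at 7533 ± 646 TPM, followed by Rps15 at 4865 ± 342 TPM and Rps21 at 4812 ± 415 TPM. The ranges of Rps15, Rps21 and Rpl23a overlapped. Several pseudogenes nearly match ribosomal protein genes in sequence, as given below, and the share of 15.3% leaves them out. Summed with such a copy, Rps12 had 6579.9 TPM and Rps2 5725.5 TPM, both above Rps15 by their means. The paralogues Rpl39l and Rpl10l, known from the testis, had 0 counts, which allows up to 0.242 and 0.172 TPM. Translation factors were detected in 18 of 19 cases. Eef1a2, the form of elongation factor 1 alpha that adult muscle uses, was at 0.0147, 0 and 0 TPM, while Eef1a1 was among the first 5 genes. Tpt1, a growth-associated factor that binds the elongation machinery, had 3244 ± 210.0 TPM, and the translocase Eef2 had 2066 ± 52.7 TPM.

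Several of the highest entries are annotated as pseudogenes, and they share sequence with genes that scored lower. Genes annotated as pseudogenes held 6.13% ± 0.276 of all TPM. Of the 143 annotated or named pseudogenes at 10 TPM or more, 120 resembled a protein-coding or mitochondrial transcript at 95% identity or more over at least 80% of their length. Those near copies carried 87.1% of the TPM of all annotated pseudogenes. Gm28661, on chromosome 1 from 24614885 to 24615565 on the minus strand, had 6198, 6183 and 7129 TPM, and mt-Co2, subunit 2 of cytochrome c oxidase encoded by the mitochondrial genome, had 1711, 2030.0 and 2142 TPM. Their 681 bases were identical. Gm29216, beside it on chromosome 1, matched mt-Co1 at 482 of 483 aligned bases. Stretches of 60 bases are printed 5′ to 3′ because reads from most of them cannot be assigned to a locus by sequence, and capitals mark a base that differs. They are positions 311 to 370 of the mt-Co2 and Gm28661 transcripts, 1063 to 1122 of mt-Co1, 10 to 69 of Gm29216, 324 to 383 of Rps12 and 320 to 379 of Rps12-ps3 (GENCODE M21).
mt-Co2: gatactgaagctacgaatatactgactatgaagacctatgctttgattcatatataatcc
Gm28661: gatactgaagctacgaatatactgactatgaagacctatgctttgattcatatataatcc
mt-Co1: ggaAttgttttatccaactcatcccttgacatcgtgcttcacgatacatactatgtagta
Gm29216: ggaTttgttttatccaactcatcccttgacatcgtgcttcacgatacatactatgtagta
Rps12: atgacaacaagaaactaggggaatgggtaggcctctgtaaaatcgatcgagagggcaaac
Rps12-ps3: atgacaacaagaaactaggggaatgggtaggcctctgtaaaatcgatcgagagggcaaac
The Rps12 window lies inside the coding sequence, at bases 71 to 481 of its transcript. Rps12, Rps2 and the other pairs here were chosen after their values were seen. Rps12-ps3 had 5898, 6276 and 5581 TPM, against 716, 711 and 557 TPM for Rps12, and the gene alone held 10.1% of their sum of 6579.9 TPM. Rps2, with 35.8, 29.01 and 27.7 TPM, held 0.539% of its sum with Rps2-ps10, which had 5584, 5971 and 5529 TPM. Gapdh, the glycolytic dehydrogenase often used as a loading control, held 41.8% of its sum with Gm13394 and Gm7336, which was 7044 TPM. Levels of Rps2, Rps12, Rpl12, Rpl5, Gapdh, Ppia, Hspa8, mt-Co1, mt-Co2, mt-Co3 and mt-Nd3 are therefore uncertain as annotated. The same holds for Rpl10, Rpl21, Rps3a1 and Rpl3, which held 18.1%, 10.7%, 20.5% and 27.9% of their sums with near copies. Where the reads came from was not tested.

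The 13 protein genes of the mitochondrial genome held 3.83% ± 0.309 of all TPM, with 3.73%, 3.58% and 4.18% in libraries 1, 2 and 3. With the 5 near copies on nuclear chromosomes the share was 5.16%. All 13 stood above 100 TPM. The order ran from mt-Co1 at 7758, 7002 and 8470.4 TPM through mt-Atp6 at 6495, 6144 and 7297 TPM, mt-Nd1 at 4889.7, mt-Cytb at 3786, mt-Nd4l at 2584, mt-Co3 at 2494, mt-Co2 at 1961, mt-Nd3 at 1823, mt-Nd4 at 1727, mt-Nd2 at 1528, mt-Nd6 at 1502 and mt-Nd5 at 936 TPM. From mt-Co2 to mt-Nd6 each range overlapped with the next. This order depends on the near copies: summed with them, mt-Co1 had 12001, mt-Co2 8464, mt-Co3 3714 and mt-Nd3 3188 TPM, which puts mt-Co2 above mt-Atp6 at 6656 TPM. mt-Atp8, an ATP synthase subunit whose gene overlaps mt-Atp6, was lowest by its mean, at 391, 659 and 963 TPM, with library 3 above library 2 and library 1 lowest. Among 40 nuclear genes of the respiratory chain 37 were detected, led by Atp5b, the catalytic subunit of ATP synthase, at 3662, 3510.1 and 3362 TPM (3511 ± 150.1). Atp5g3 of its membrane ring followed at 944 ± 66.1 TPM, and the cytochrome oxidase subunits Cox6c and Cox4i1 at 773 ± 51.1 and 759 ± 54.9 TPM overlapped. Chosen after their values were seen, the heart and muscle isoforms of cytochrome oxidase subunits were low, with Cox6a2 at 0.354, 0.400 and 0.327 TPM, Cox8b at 0.239, 0 and 0.215 TPM and Cox7a1 at 6.38, 4.98 and 6.15 TPM.

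Cytoskeletal transcripts were among the highest. Actin cytoskeleton genes together held 3.49% ± 0.0315 of all TPM, 38 of 39 were detected and 32 stood at 100 TPM or more. The non-muscle actins Actb and Actg1 had 6008, 5468 and 6028 TPM (Actb) and 5120.0, 5021 and 5110.0 TPM (Actg1). Between them lay Tmsb10, which binds free actin subunits, at 5794, 6069 and 5477 TPM, with a range that overlapped that of Actb but not that of Actg1. Pfn1 (profilin, which feeds actin subunits to growing filaments) and Myl6 (a non-muscle myosin light chain) overlapped at 2526 ± 30.02 and 2482 ± 169 TPM. Vim, the intermediate filament protein of mesenchymal cells, had 6449, 6210.3 and 5968 TPM and lay far above Des, the muscle intermediate filament protein, at 354, 332 and 351 TPM. Cfl1 (cofilin, which severs filaments) had 1555 ± 77.6 TPM. Tuba1b and Tuba1a, the main alpha tubulins, had 2159.5 ± 51.8 and 1391 ± 6.74 TPM, and Lmna of the nuclear lamina 1236 ± 22.1 TPM. The beta tubulins Tubb5 and Tubb4b had 1088 ± 18.7 and 618 ± 12.4 TPM, and Tubb1, the platelet form, had 0 counts, which allows up to 0.113 TPM.

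Matrix genes were led by Spp1 (osteopontin, a secreted integrin ligand) at 1635, 1768 and 1716 TPM, followed without overlap by Sparc, a collagen-binding matrix protein, at 1021, 1011 and 1053 TPM and Fn1, fibronectin, at 832, 697 and 740.5 TPM. In all 45 of 53 matrix genes were detected. Serpinh1, the collagen chaperone, had 603 ± 6.502 TPM and P4hb, a subunit of the enzyme that hydroxylates collagen prolines, 489 ± 12.5 TPM. Timp1, an inhibitor of matrix proteases, had 483 ± 16.9 TPM and overlapped with P4hb. Chosen after their values were seen, the chains of type I collagen were unequal: Col1a2 had 372, 343 and 344 TPM and Col1a1 48.3, 46.6 and 46.6 TPM, a ratio of 7.49 ± 0.192 (SD, n = 3). Dcn and Lum, matrix proteoglycans of fibroblasts, were at 1.13, 1.41 and 1.26 TPM and at 0, 0 and 0.0114 TPM.

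Of the 4 myogenic factors 3 were detected, with Myod1 and Myf5 highest and Myog near 1 TPM. Myod1 (chromosome 7, 46376474 to 46379099, plus strand, GRCm38) had 78.9, 71.8 and 80.5 TPM in libraries 1, 2 and 3 (77.05 ± 4.64, SD, n = 3), and Myf5 had 24.8, 26 and 26.7 TPM (25.8 ± 0.974). Within each library Myod1 was above Myf5, by a ratio of 2.99 ± 0.214. Myog had 1.904, 1.97 and 1.36 TPM (1.74 ± 0.332), and the ratio of Myod1 to Myog ran from 36.5 in library 2 to 59.1 in library 3. Myf6, which is used mainly by differentiated fibres, had 0.238, 0.164 and 0.317 TPM and did not reach 1 TPM. The ranges of these 4 genes did not overlap.

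Partners of the myogenic factors were present. The E proteins Tcf3 and Tcf12, with which MYOD1 pairs, had 115, 103 and 109 TPM (Tcf3) and 67.96, 64.4 and 72.8 TPM (Tcf12), and Tcf4 had 35.2, 31.2 and 32.3 TPM. Among the MEF2 factors, which act with the myogenic factors on muscle genes, Mef2d and Mef2a led at 50.9 ± 4.22 and 40.2 ± 3.03 TPM. Mef2c, the form tied to differentiation, had 4.49, 3.13 and 3.68 TPM, and Mef2b was at 0.0285, 0 and 0.0264 TPM. No neighbours in this order overlapped. Inhibitors of myogenic factors were also abundant, with 16 of 21 detected. Id1, Id3 and Id2, which bind E proteins and keep them from DNA, had 119.7, 119 and 117 TPM (Id1), 106, 115 and 112 TPM (Id3) and 73.6, 74.1 and 75.8 TPM (Id2). The repressors Twist2, Hes1 and Zeb2 followed at 56.9 ± 2.89, 44.8 ± 2.38 and 42.1 ± 2.38 TPM. Twist1, singled out after its value was seen, was at 0.00660 TPM on average, in contrast to its paralogue Twist2 at 53.6, 58.9 and 58.2 TPM.

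**Figure D2:**
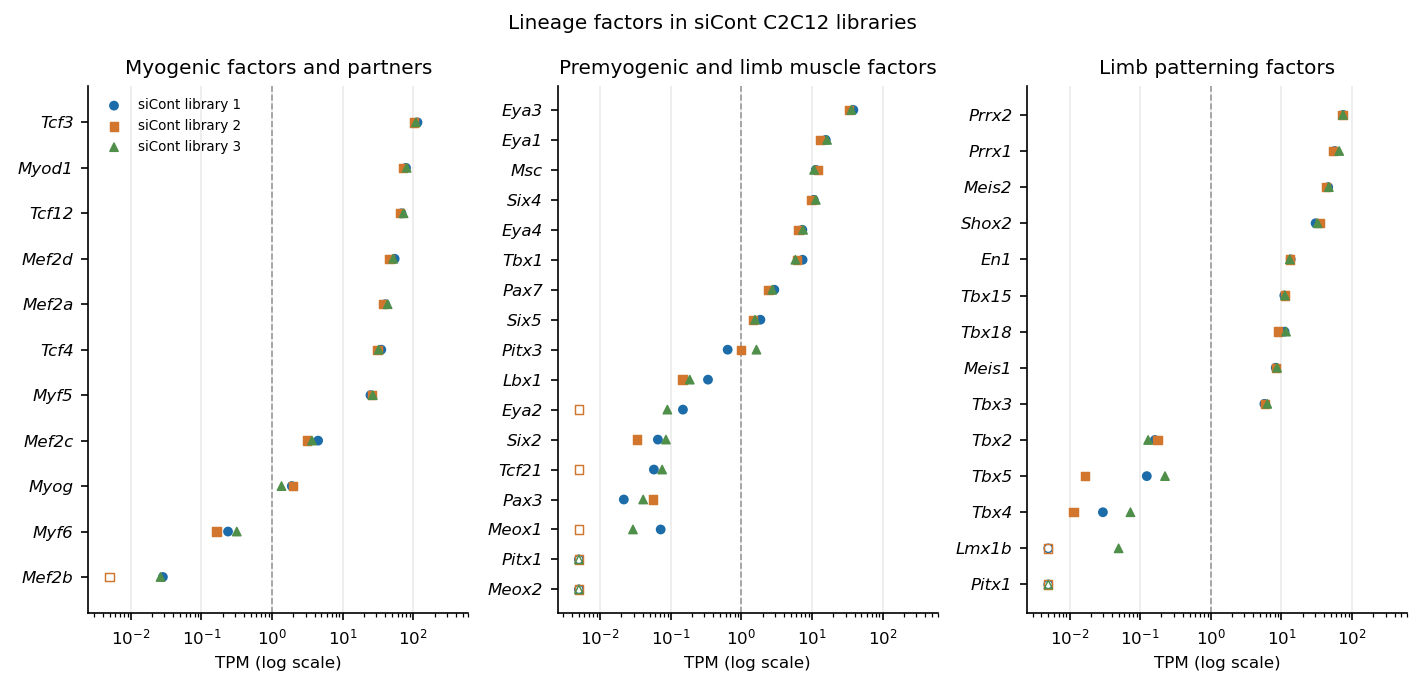
TPM on a log axis of the lineage factors reported here in the 3 siCont libraries, each symbol a library. The dashed line is 1 TPM, and open symbols at the left edge are values under 0.005 TPM. Tcf3, Eya3 and Prrx2 head the panels at means of 109, 35.9 and 74.2 TPM, and Pitx1 and Meox2 lie at 0 in every library.

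Upstream of the myogenic factors, 10 of 19 premyogenic genes were detected, a share of 52.6% that is close to the 50.1% of all protein-coding genes. Eya3, a transcriptional coactivator in muscle precursors, had 38.5, 33.3 and 36.04 TPM. Eya1 had 14.98 ± 1.77, Msc 11.4 ± 0.744, Six4 10.6 ± 0.741, Eya4 7.07 ± 0.547 and Tbx1 6.43 ± 0.812 TPM. Pax7, the marker of satellite cells, was low but detected, at 2.92, 2.42 and 2.74 TPM. Pax3, the factor of embryonic muscle precursors, was at 0.0216, 0.0558 and 0.0406 TPM. Six5 and Pitx3 had 1.63 ± 0.202 and 1.09 ± 0.504 TPM, with Pitx3 under 1 TPM in libraries 1 and 2. Lbx1, Eya2, Six2, Tcf21 and Meox1 had means of 0.223, 0.0793, 0.0615, 0.0444 and 0.0337 TPM. Pitx1 and Meox2 had 0 counts, which allows up to 0.0589 and 0.0615 TPM if the counts fell on the longest transcript.

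Surface and identity genes of myoblasts were detected for 26 of 29 listed genes. Itgb1 and Itga7, the beta and alpha chains of the laminin receptor of muscle, had 374, 357 and 408 TPM (Itgb1) and 192, 179 and 185 TPM (Itga7). Des had 346 ± 12.02 TPM. Cdh15, the M-cadherin of muscle precursors, had 134, 131 and 132 TPM. Cav1 and Sdc4, a caveolar protein and a satellite cell proteoglycan, had 191 ± 10.5 and 139 ± 5.73 TPM. Calcr, a receptor of quiescent satellite cells, had 0 counts, which allows up to 0.0367 TPM. Fusion genes were detected for 16 of 23, led by the tetraspanins Cd9 and Cd81 at 379, 382 and 381 TPM (Cd9) and 225, 224 and 226 TPM (Cd81), and by Myof (myoferlin, a membrane repair protein) at 182, 159 and 178 TPM. Ehd2, Jam2 and Neo1, a membrane remodelling protein and cell surface receptors, had 124 ± 4.87, 115 ± 4.77 and 65.7 ± 5.02 TPM, and Adgrb1 had 0 counts (up to 0.0215 TPM). The fusogens, named after their values were seen, were low: Mymk (myomaker) had 3.59, 3.32 and 2.98 TPM and Mymx (myomixer) averaged 0.102 TPM.

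The sarcomere was largely undetected. Of the sarcomere and contraction genes 16 of 54 were detected, a share of 29.6% against 50.1% of all protein-coding genes, with a median of 0.465 TPM. The list as a whole held 0.0749% of all TPM, and most of that was Eno3, the muscle enolase of glycolysis, at 498, 524 and 507 TPM, and Tnnt2, the cardiac and embryonic troponin T, at 147, 144 and 149.8 TPM. A single annotated transcript held 87.7% of the TPM of Tnnt2. Actn3, Tnnc1, Myl1 and Acta1, which encode the Z-disc actinin of fast fibres, slow troponin C, a fast myosin light chain and skeletal actin, had 21.2 ± 2.23, 10.97 ± 1.03, 9.69 ± 1.43 and 8.21 ± 0.968 TPM. Ckmt2 had 0 counts, with up to 0.106 TPM allowed. At a minimum of 2 TPM 9 of the 54 genes remained counted. Lower members, chosen after their values were seen, include Myh3 at 0.503, 0.376 and 0.356 TPM, Ckm at 0.444, 0.302 and 0.198 TPM and Mb at 0.188, 0.128 and 0.0519 TPM, which encode embryonic myosin heavy chain, muscle creatine kinase and myoglobin.

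Des lay above every listed contractile gene except Eno3, and its promoter is printed for an E-box, the kind of sequence bound by MYOD1 with E proteins. The 250 bases before the start (RefSeq, GRCm38.p6, plus strand, chr1:75360042-75360291) hold CAGCTG, in capitals, beginning 36 bases before the start:
Des: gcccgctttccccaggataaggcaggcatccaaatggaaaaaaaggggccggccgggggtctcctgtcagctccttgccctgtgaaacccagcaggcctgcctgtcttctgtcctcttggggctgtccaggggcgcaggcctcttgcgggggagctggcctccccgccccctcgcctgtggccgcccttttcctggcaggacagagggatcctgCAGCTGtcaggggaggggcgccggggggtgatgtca
The letters CAGCTG, the same on both strands, were found in 17 of 44 sarcomere promoters in the RefSeq table (38.6%), against 12.8% of 27025 promoters of the same length, 1 per gene. Of 54 sarcomere genes 44 matched the table. The presence of these letters says nothing about binding.

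Components of the neuromuscular junction and of the dystrophin complex differed in how complete they were. Acetylcholine receptor subunits were detected except Chrne: Chrna1 had 134, 133 and 136 TPM, Chrnb1 80.4, 73.01 and 70.1 TPM and Chrnd 29.3, 30.8 and 28.4 TPM, while the fetal subunit Chrng had 1.99, 1.46 and 1.48 TPM and the adult subunit Chrne 0, 0.0234 and 0 TPM. Rapsn, Musk and Dok7, which cluster the receptor, had 19 ± 0.283, 12.8 ± 1.704 and 10.1 ± 1.74 TPM, and Agrn and Lrp4, their ligand and its receptor, 6.12 ± 0.485 and 3.81 ± 0.221 TPM. The receptor was thus present without its adult subunit, whereas the dystrophin complex lacked its namesake. Dmd, the dystrophin gene, was at 0.0346, 0.0812 and 0.0272 TPM in libraries 1, 2 and 3, whereas its relative Utrn (utrophin) was at 32, 26.95 and 31.9 TPM. Dag1, the dystroglycan to which both proteins bind, had 80.3, 74.5 and 76.4 TPM. The sarcoglycans Sgcb, Sgce and Sgcd had 24.5 ± 0.713, 24.7 ± 0.957 and 7.46 ± 0.291 TPM, against 1.55, 3.94 and 2.73 TPM for Sgca. Among the remaining members, the syntrophins Sntb2 and Sntb1 had 16.2 and 6.45 TPM, the dystrobrevins Dtnb and Dtna 12.3 and 11.1 TPM, and Sspn and Lama2 10.7 and 6.195 TPM. The label of myoblasts was thus met by most of its listed markers, not by all. Des, Cdh15, Myod1, Ncam1, Vcam1, Myf5 and Msc had means of 346, 132, 77.05, 50.5, 45.1, 25.8 and 11.4 TPM. Pax7 and Myog were lower at 2.70 and 1.74 TPM, and Myf6 was under 1 TPM at 0.240 TPM. Few contractile genes were detected.

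Hox genes, which record position along the body axis, were detected from the A and C clusters. All 9 measured Hoxc genes and 8 of 11 Hoxa genes reached 1 TPM, against 2 of 10 Hoxb genes and 0 of 9 Hoxd genes. Hoxc10 was highest at 55.4, 56.6 and 57.2 TPM (56.4 ± 0.911), followed by Hoxa9 at 41.1, 43.4 and 39.8 TPM and Hoxc11 at 30.2, 29.2 and 30.6 TPM. Hoxa10, Hoxa11 and Hoxa7 had 24.7, 23.9 and 25.4 TPM (Hoxa10), 21.8, 22.1 and 21.7 TPM (Hoxa11) and 20.2, 20.3 and 21.4 TPM (Hoxa7), and no neighbours among the 4 highest Hoxa genes overlapped. In the C cluster Hoxc9 and Hoxc6 overlapped at 13.6 ± 1.76 and 11.2 ± 2.24 TPM, as did Hoxc4 and Hoxc13 at 6.37 ± 0.915 and 5.99 ± 0.0905 TPM. Hoxc5, Hoxc12 and Hoxc8 had 2.89, 1.98 and 1.596 TPM. Among the lower Hoxa genes Hoxa6, Hoxa5 and Hoxa3 had 4.97, 4.18 and 1.31 TPM, and Hoxa13, Hoxa4 and Hoxa2 were under 1 TPM. Hoxb4 and Hoxb6 had 1.32 ± 0.149 and 1.08 ± 0.136 TPM, and at 2 TPM no Hoxb gene remained. Hoxd1, Hoxd3, Hoxd8, Hoxd9, Hoxd12 and Hoxd13 had 0 counts in all libraries, which allows between 0.0476 and 0.0808 TPM.

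**Figure D3:**
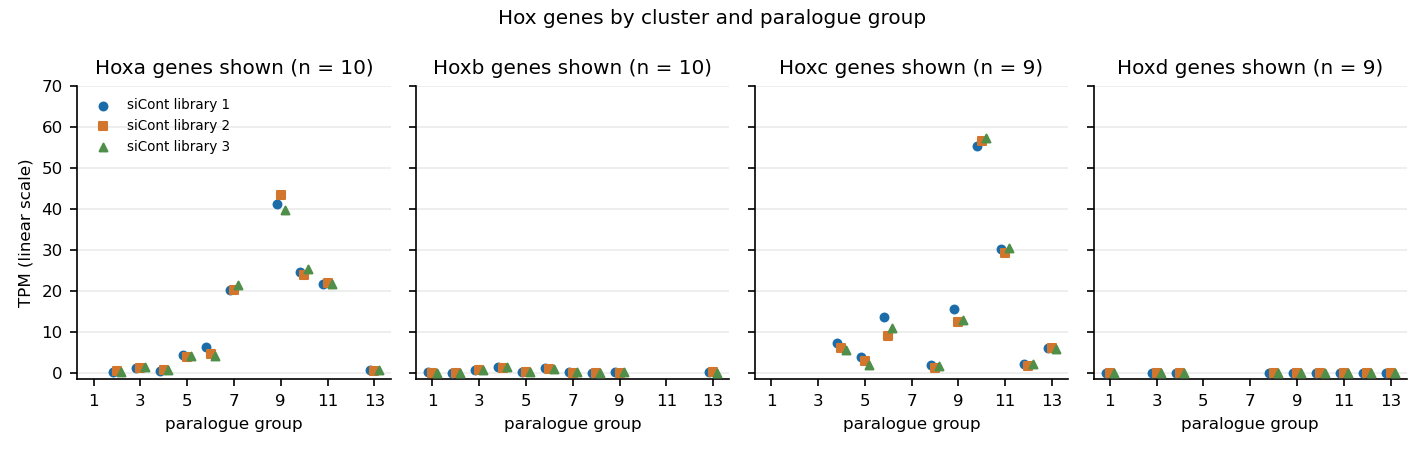
TPM (linear axis) of Hox genes in the 3 siCont libraries against paralogue group, 1 panel per cluster, each symbol a library. The A and C clusters peak at Hoxa9 (mean 41.4 TPM) and Hoxc10 (mean 56.4 TPM), and the B and D clusters lie along the baseline.

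Other limb factors were partly present. Prrx2 and Prrx1, homeodomain factors of limb mesenchyme, had 74.97, 72.96 and 74.5 TPM (Prrx2) and 56.9, 53.4 and 65.7 TPM (Prrx1), and the HOX cofactor Meis2 had 45.9, 43.1 and 46.98 TPM. Shox2 had 32.7 ± 2.32, En1 13.3 ± 0.219, Tbx15 11.1 ± 0.112, Tbx18 10.6 ± 1.41, Meis1 8.45 ± 0.192 and Tbx3 5.97 ± 0.305 TPM. Tbx5 of the forelimb and Tbx4 and Pitx1 of the hindlimb were not detected. Tbx5 had 0.124, 0.0167 and 0.225 TPM, Tbx4 0.0297, 0.0114 and 0.0728 TPM, and Pitx1 0 counts. Tbx2 and Lmx1b averaged 0.156 and 0.0165 TPM. The detected members of this list thus included general limb mesenchyme factors but not Tbx5, Tbx4 or Pitx1. The Hox genes given above were not part of this list.

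Keap1 and Nfe2l2, the core pair of the oxidant sensor, were both expressed at moderate levels. Keap1 (chromosome 9, 21229730 to 21239361, minus strand) had 30.6, 30.4 and 30.2 TPM (30.4 ± 0.172), with little spread between libraries. Its TPM was split over several annotated transcripts, of which the 3 highest held 38.1%, 27.2% and 24.4%. Nfe2l2, which encodes NRF2, had 87.2, 83.3 and 86.98 TPM (85.8 ± 2.201), 2.82 ± 0.0729 times the TPM of Keap1 in the same library. Sqstm1 (p62, an autophagy receptor that can bind KEAP1) was highest in the group at 537, 528 and 543 TPM. The NRF2 relative Nfe2l1 had 137, 118 and 121 TPM, and Nfe2 and Nfe2l3 averaged 0.493 and 0.143 TPM. Both relatives other than Nfe2l1 were thus under 1 TPM. Small MAF proteins, the DNA-binding partners of NRF2, were present as Mafg at 74.2, 59.2 and 65.5, Maff at 43.2, 43.6 and 44.2 and Mafk at 20.6, 18.5 and 18.7 TPM. The competing repressor Bach1 had 18.6, 15.1 and 17.4 TPM and overlapped with Mafk, and Bach2 averaged 0.296 TPM. The KEAP1 binders Dpp3 and Pgam5 had 67.4 ± 2.36 and 58.1 ± 1.67 TPM, and Fbxw11 and Btrc, receptors of a CUL1 ligase that also marks NRF2, 58 ± 5.27 and 12.6 ± 0.925 TPM. In all 12 of 15 members were detected.

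**Figure D4:**
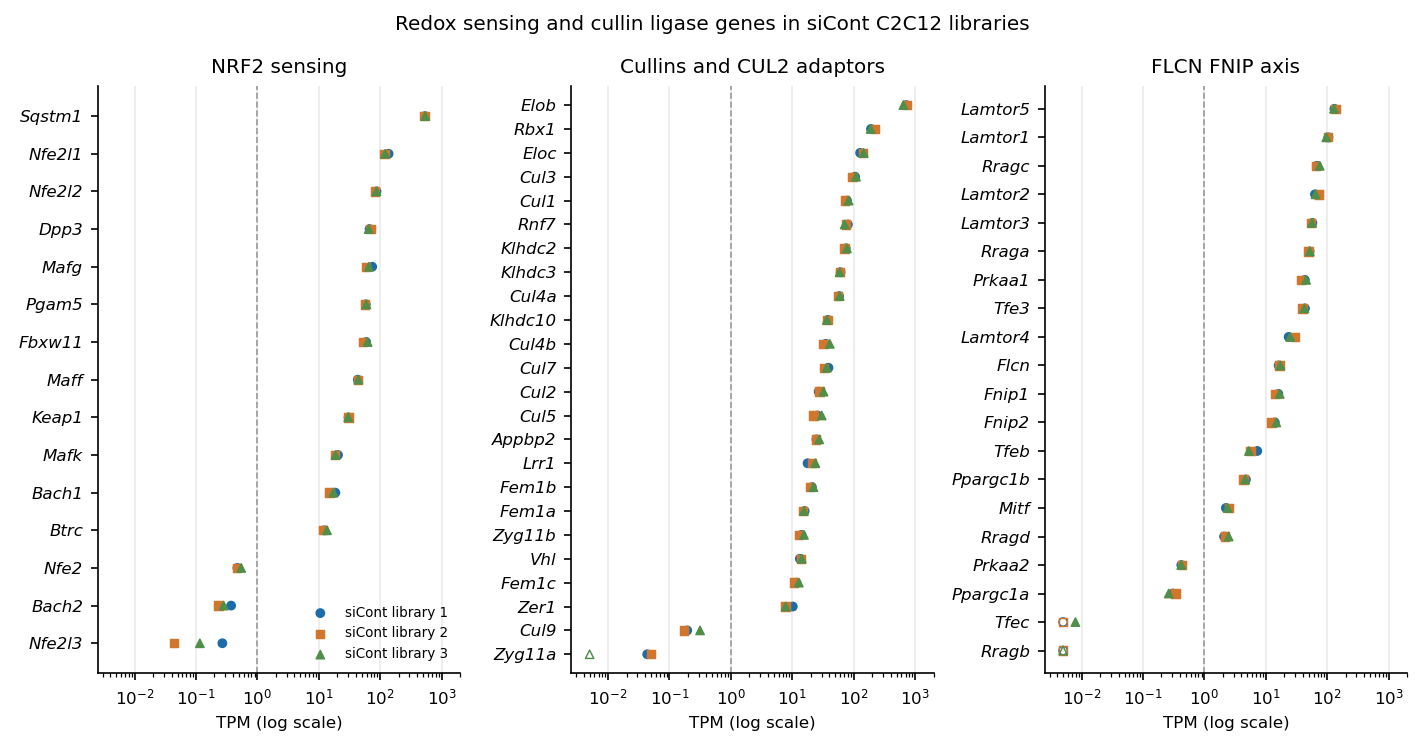
TPM on a log axis of genes of NRF2 sensing (left), cullins and CUL2 adaptors and receptors (middle) and the FLCN FNIP axis (right) in the 3 siCont libraries, each symbol a library. The dashed line is 1 TPM and open symbols are values under 0.005 TPM. Keap1 (mean 30.4 TPM) and Fem1b (mean 20.8 TPM) lie in the middle of their panels, and Ppargc1a (mean 0.302 TPM) lies left of the line.

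Genes of quinone and heme detoxification, several of them known NRF2 targets, were expressed in the control cells without any depletion. Of this list 16 of 17 were detected, beside 50.1% of all protein-coding genes. Akr1b3, an aldose reductase, led at 308, 326 and 312 TPM, followed by Ugdh, which makes UDP-glucuronate, at 172, 165 and 172 TPM. Nqo1, the quinone reductase used as an NRF2 readout, had 79.5, 78.1 and 86.3 TPM and overlapped with the epoxide hydrolase Ephx1 at 82.3, 83.5 and 85.6 TPM. The heme oxygenases Hmox2 and Hmox1 had 61.9, 63.1 and 60.4 TPM (Hmox2) and 54.7, 51.7 and 53.5 TPM (Hmox1) and did not overlap. Akr1b8 and Aldh3a1, aldehyde-metabolising enzymes, had 102 ± 2.48 and 60.3 ± 3.41 TPM. The remaining members were Ptgr1 at 44.3, Blvra at 40.9, Nqo2 at 33.8, Cbr3 at 21.2, Blvrb at 20.5, Cbr1 at 14.8, Akr1b10 at 14.5 and Aox1 at 3.55 TPM, with Ephx2 at 0.0444 TPM.

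Glutathione is made by the ligase GCL, whose modifier subunit is Gclm and catalytic subunit Gclc. Gclm had 97.7, 92.98 and 92.2 TPM, and Gclc, named after its value was seen, 35, 29.4 and 29.8 TPM, a ratio of 3.02 ± 0.197. Gsr, which reduces oxidised glutathione, had 85.3, 79.96 and 94.2 TPM and overlapped with Gclm. Slc25a39, the mitochondrial glutathione carrier, was highest at 188, 187 and 183 TPM. Slc3a2, the heavy chain shared by several amino acid exchangers, had 166, 154 and 158 TPM, whereas the cystine-specific light chain Slc7a11, singled out after its value was seen, had 3.38, 2.82 and 3.34 TPM. Glrx3 and Glrx5, glutaredoxins that handle iron-sulfur clusters, had 106 ± 5.01 and 67.9 ± 0.891 TPM. In this group 19 of 22 genes were detected. Glutathione S-transferases were detected for 15 of 24, led by Gstp1 at 308, 333 and 306, Gsto1 at 244, 244 and 242 and Gsta4 at 209.8, 203 and 203 TPM, and then by Mgst3, Gsta1 and Gstm1 at 99.5 ± 1.56, 85.1 ± 4.45 and 70.8 ± 4.75 TPM. Members of the same subfamily are similar in sequence, so their separate levels are uncertain. Gstm3 and Gstm6 had 0 counts, which allows up to 0.124 and 0.142 TPM.

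The antioxidant response element through which NRF2 acts has the core TGACNNNGC. The promoters of Gclm and Nqo1 are shown because these genes serve as readouts of the sensor. The 250 bases before the start (RefSeq, GRCm38.p6) are chr3:122245307-122245556 on the plus strand for Gclm and chr8:107403206-107403455 on the minus strand for Nqo1. Capitals mark the core on the opposite strand in Gclm, beginning 134 bases before the start, and TATAAA in Nqo1, beginning 29 bases before the start.
Gclm: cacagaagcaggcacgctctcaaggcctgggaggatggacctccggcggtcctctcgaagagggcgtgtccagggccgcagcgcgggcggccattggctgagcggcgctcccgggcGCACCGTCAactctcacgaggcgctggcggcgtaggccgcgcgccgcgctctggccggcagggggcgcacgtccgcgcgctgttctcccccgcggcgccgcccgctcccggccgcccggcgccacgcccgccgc
Nqo1: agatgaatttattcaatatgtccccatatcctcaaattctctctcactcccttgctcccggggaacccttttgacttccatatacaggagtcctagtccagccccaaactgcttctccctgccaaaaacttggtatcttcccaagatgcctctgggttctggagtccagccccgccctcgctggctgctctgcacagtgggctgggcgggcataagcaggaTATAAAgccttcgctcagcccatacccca
On either strand, TGACNNNGC was in 10.1% and TATAAA in 13.0% of the 27025 promoters of this length. The Nqo1 window holds no TGACNNNGC, which says only that these letters are not in this window.

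Thioredoxin genes and peroxide scavengers were among the most abundant redox genes, and all 23 members of the thioredoxin and peroxiredoxin list were detected. Txn1, the cytosolic thioredoxin, had 885, 939 and 858 TPM, and its reductase Txnrd1 245, 227 and 252 TPM, which overlapped with mitochondrial Txn2 at 231, 242 and 235 TPM. The peroxiredoxins Prdx2, Prdx1 and Prdx6 had 515, 540.1 and 478 TPM (Prdx2), 368, 423 and 445 TPM (Prdx1) and 275, 269 and 274 TPM (Prdx6). Sod1 (cytosolic superoxide dismutase) had 894, 912 and 839.9 TPM and mitochondrial Sod2 98.4, 101 and 96.8 TPM. Txn1 and Sod1 were thus above their mitochondrial counterparts. Gpx4, which reduces lipid peroxides, had 561, 593 and 571 TPM, above Gpx1 at 249, 270.5 and 247 and Gpx8 at 184, 206 and 195 TPM. Ccs, Sod3 and Gpx3 had 28.9 ± 0.0224, 11.6 ± 0.157 and 3.53 ± 0.491 TPM, Gpx2 and Gpx7 averaged 0.0312 and 0.0171 TPM, and Gpx5 and Gpx6 had 0 counts, allowing up to 0.0916 and 0.120 TPM.

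Enzymes of pathways that make NADPH, the reductant of these systems, were detected for 21 of 22. Not every listed enzyme makes NADPH itself. The list is spread over the pentose phosphate pathway, folate metabolism and the citrate cycle. The pentose phosphate enzymes Taldo1, Pgd, G6pdx and Pgls had 176, 182 and 174 TPM (Taldo1), 175, 169.7 and 176 TPM (Pgd), 132, 131 and 135 TPM (G6pdx) and 128, 129 and 116 TPM (Pgls), with Taldo1 and Pgd overlapping. Nadk, which phosphorylates NAD, and mitochondrial Idh2 also overlapped, at 149.7, 143 and 152 TPM (Nadk) and 146, 143 and 143 TPM (Idh2). Enzymes that use NADPH to make superoxide or peroxide were mostly undetected, with 3 of 16 NADPH oxidase genes at 1 TPM or more. These were Rac1, a small GTPase with many other roles, at 391, 391 and 405 TPM, the maturation factor Duoxa1 at 4.601, 5.35 and 5.26 TPM, and Nox4, which is active without the cytosolic subunits, at 3.4, 3.53 and 3.11 TPM. Duox1 had 0.688, 0.813 and 0.686 TPM, Noxo1 and Nox1 averaged 0.416 and 0.374 TPM, and Cyba, the membrane partner of NOX4, had 0.149, 0.150 and 0.438 TPM. Ncf1, Duox2, Cybb, Rac2, Duoxa2 and Ncf4 had means from 0.0180 to 0.173 TPM. Noxa1 and Nox3 had 0 counts, with up to 0.0955 and 0.0845 TPM allowed.

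Ferritin, metallothioneins and iron-binding chaperones were high, with the iron exporter near 1 TPM. Ftl1 and Fth1, the light and heavy chains of ferritin, had 7625, 7691 and 7279 TPM (Ftl1) and 3129.5, 3261 and 3173 TPM (Fth1), with a ratio of 2.36 ± 0.0712. Pcbp2 and Pcbp1, RNA-binding proteins that also carry iron to ferritin, had 1186 ± 28.2 and 426 ± 16.6 TPM. Ncoa4, the receptor for ferritin turnover, overlapped at 80.6, 75.02 and 85.9 TPM with Tfrc, the transferrin receptor, at 77.01, 67.1 and 86.4 TPM. Slc39a14, Steap3, Slc11a2 and the iron sensors Aco1 and Ireb2 had 62.3, 49.9, 34.4, 33.96 and 25.8 TPM. The iron exporter Slc40a1 had 0.892, 1.46 and 1.63 TPM. Trf, Tfr2 and Hamp averaged 0.219, 0.181 and 0.0670 TPM, and Ftmt had 0 counts with up to 0.109 TPM allowed. The metallothioneins Mt1 and Mt2, which bind zinc and copper, had 629, 643 and 556 TPM (Mt1) and 408, 422 and 378 TPM (Mt2). Their activator Mtf1 had 12.7 ± 0.441 TPM, and Mt3 and Mt4 had 0 counts, which allows up to 0.480 and 0.862 TPM.

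Cullins were detected for 9 of 10 members of the cullin and RING list. Rbx1, the RING subunit of most cullin ligases, had 192, 220.2 and 189 TPM. Cul3 had 106, 96.2 and 109.5 TPM and Cul2 26.9, 27.9 and 32.3 TPM, so that the KEAP1 scaffold was 3.59 ± 0.293 times the FEM1B scaffold on the TPM scale. Cul1 at 77.9, 72.2 and 82.9 TPM overlapped with Rnf7, the RING partner of CUL5, at 80.6, 75.5 and 71.3 TPM. Cul4a, Cul4b and Cul7 had 57.5 ± 2.17, 36.2 ± 4.31 and 36.1 ± 3.04 TPM, with the last pair overlapping. Cul5 overlapped with Cul2 at 25.8, 22.1 and 30.2 TPM, and Cul9 averaged 0.228 TPM. The ligases are switched on by attachment of NEDD8. Nedd8 had 319, 344 and 298 TPM, its conjugating enzymes Ube2m and Ube2f 215 ± 7.89 and 68.7 ± 2.499 TPM, and the exchange factor Cand1 137, 111 and 127 TPM. All 13 neddylation genes and all 10 COP9 signalosome genes, whose product removes NEDD8, were detected, with Cops9, Cops2 and the catalytic subunit Cops5 at 222 ± 18.2, 194 ± 14.7 and 109 ± 3.31 TPM.

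Fem1b (chromosome 9, 62791821 to 62811934, minus strand) was a moderate member of the CUL2 group. It had 20.9, 19.2 and 22.1 TPM (20.8 ± 1.45), all from 1 annotated transcript, and its range overlapped with that of Lrr1 at 17.8, 21.05 and 23.9 TPM. Keap1 was 1.47 ± 0.107 times as high as Fem1b, above it in every library. The paralogues Fem1a and Fem1c, which also recognise C-terminal degrons, had 15.9, 14.96 and 15.5 TPM (Fem1a) and 11.7, 10.7 and 12.8 TPM (Fem1c) and overlapped neither with Fem1b nor with each other. Fem1a overlapped with Zyg11b at 14.2, 12.7 and 15.5 TPM. Vhl, the receptor for hypoxia-inducible factors, had 13.3, 13.96 and 14.3 TPM and overlapped with Zyg11b. The adaptors that link these receptors to CUL2 were higher, with Elob at 719.6, 741 and 646 TPM and Eloc at 128, 141 and 146 TPM. Among the receptors themselves the levels were lower than those of the adaptors. Klhdc2, Klhdc3 and Klhdc10, receptors of C-terminal glycine degrons, had 74.2 ± 3.51, 60.1 ± 1.096 and 37.5 ± 0.958 TPM, and Appbp2, Zer1 and Zyg11a 25.6 ± 1.63, 8.603 ± 1.39 and 0.0311 TPM.

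The known substrate of FEM1B in this setting is FNIP1, a partner of folliculin (FLCN) in AMPK and lysosomal signalling. Fnip1 had 16.05, 13.98 and 16.9 TPM, Fnip2 14.1, 12.5 and 14.9 TPM and Flcn 16.2, 16.7 and 17.3 TPM, and neighbours among these overlapped. The Ragulator genes Lamtor5, Lamtor1, Lamtor2, Lamtor3 and Lamtor4, which dock this complex on lysosomes, had 133 ± 4.46, 102 ± 4.36, 67.2 ± 5.55, 56.3 ± 1.61 and 26.2 ± 3.39 TPM. The Rag GTPases Rragc, Rraga and Rragd had 69.7 ± 5.39, 51.3 ± 1.204 and 2.25 ± 0.208 TPM, and Rragb had 0 counts with up to 0.0646 TPM allowed. Of these GTPases the C form was above the D form, its paralogue. Among the transcription factors they restrain, Tfe3 led at 43.6, 39.7 and 42.6 TPM, against 7.28, 5.65 and 5.32 TPM for Tfeb, 2.24, 2.53 and 2.39 TPM for Mitf and 0.00264 TPM for Tfec. The AMPK catalytic subunits Prkaa1 and Prkaa2 had 43.3, 37.6 and 45.4 TPM (Prkaa1) and 0.421, 0.436 and 0.420 TPM (Prkaa2). Ppargc1a, the mitochondrial coactivator induced in muscle, had 0.304, 0.340 and 0.262 TPM, and its relative Ppargc1b 4.75, 4.32 and 4.65 TPM.

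KEAP1 is 1 of many BTB receptors of CUL3, of which 34 of 54 measured were detected. Ivns1abp had 112, 104 and 114 TPM and Spop, a receptor with many nuclear substrates, 94.2, 96.3 and 92.6 TPM. The next members, Enc1, Rhobtb3, Klhl30 and Keap1, had 32.7 ± 2.12, 31.6 ± 4.02, 30.99 ± 0.902 and 30.4 ± 0.172 TPM, and each overlapped with its neighbour, so Keap1 cannot be ranked among them. Most of the remaining receptors were lower, and 5 had no counts. Klhl4, Klhl29, Klhl34, Klhl38 and Kbtbd13 had 0 counts, which allows up to 0.0387, 0.0189, 0.0772, 0.0662 and 0.0476 TPM. Receptors of CUL1 and CUL4 ligases were all detected, and the adaptors Ddb1 and Skp1a led at 394, 385 and 410.1 TPM (Ddb1) and 192, 198 and 211 TPM (Skp1a). Fbxo32 (atrogin-1), the receptor induced in wasting muscle, was lowest at 1.36, 1.26 and 1.49 TPM. Trim63 (MuRF1), named after its value was seen, averaged 0.181 TPM. Rps27a and Ubb, which encode ubiquitin, had 2032 ± 114 and 1042 ± 20.1 TPM, and 35 of 37 ubiquitin and proteasome genes were detected. The proteasome subunits Psma7 and Psmb3 had 541 ± 12.3 and 447 ± 19.6 TPM. Nedd4, Stub1, Rnf4 and Huwe1, ligases outside the cullin family, had 373 ± 23.5, 172 ± 5.63, 107 ± 7.098 and 97.1 ± 10.5 TPM.

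Transcripts of the cell cycle were abundant, with 35 of 36 genes detected and 20 at 100 TPM or more. Cdk4 and Cdk1, kinases of early and late cycle, had 525, 530.0 and 534 TPM (Cdk4) and 504, 502 and 468 TPM (Cdk1). Rrm2 and Pcna of DNA synthesis had 409.9, 409 and 433 TPM (Rrm2) and 256, 266 and 258 TPM (Pcna), Ccnd1 (cyclin D1) 308, 276 and 313 TPM and Top2a 266, 248 and 271 TPM. Inhibitors were uneven. Cdkn1a (p21) had 116, 114 and 113 TPM and Trp53 (p53) 199, 192 and 197 TPM, with the p53 targets Ccng1, Mdm2 and Gdf15 at 120.4 ± 8.35, 83.7 ± 3.57 and 47.1 ± 2.404 TPM. Cdkn2a and Cdkn2b, neighbouring loci that encode p16, p19ARF and p15, had 0 counts in all libraries, which allows up to 0.207 and 0.115 TPM. Cdkn2d, Cdkn2c, Mdm4 and Cdkn1b overlapped in turn at 32.8, 32.3, 30.4 and 28.8 TPM. Cdkn1c, which accompanies muscle differentiation, had 1.68, 0.709 and 1.21 TPM, and Trp63 and Trp73 averaged 0.0427 and 0.00691 TPM.

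In the insulin-like growth factor system 4 of the binding proteins stood highest. Igfbp2 had 986, 959 and 959.6 TPM, Igfbp5 265, 250.4 and 276 TPM, Igfbp6 199, 222 and 207 TPM and Igfbp7 132, 153 and 135 TPM. Igfbp3 and Igfbp4 had 3.16 ± 0.164 and 2.34 ± 0.132 TPM, below the adaptor Irs1 at 29.1 ± 2.76 TPM. The ligands Igf2 and Igf1, known to drive differentiation of muscle cells, were at 0.248, 0.268 and 0.252 TPM (Igf2) and 0.299, 0.0964 and 0.277 TPM (Igf1). Neither ligand reached 1 TPM in any library. The receptors Igf1r, Insr and Igf2r had 13.2, 11.5 and 13.4 TPM (Igf1r), 10.02, 7.86 and 10.5 TPM (Insr) and 9.49, 7.47 and 9.88 TPM (Igf2r). Igfbp1 had 0 counts, with up to 0.103 TPM allowed. Fgfr1 led the FGF and TGF-beta list at 87.7, 78.3 and 82.4 TPM, followed by the ligand Tgfb1 at 60.2, 58.7 and 57.9 TPM and the receptor Bmpr1a at 50.05, 49.8 and 56.04 TPM. Mstn (myostatin), the muscle growth inhibitor, had 0 counts, allowing up to 0.0527 TPM. Of the Notch pathway, Jag2 at 55.2, 45.4 and 47.5 TPM overlapped with the target Hes1, and the receptors Notch2, Notch1 and Notch3 had 42.2, 35.8 and 39.05 TPM (Notch2), 10.5, 9.84 and 8.53 TPM (Notch1) and 10.5, 9.397 and 8.76 TPM (Notch3). The ligands Dll1, Dll3 and Dll4 averaged 0.911, 0.222 and 0.00473 TPM, and Jag1 2.16 TPM.

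Since every library had received an siRNA, the machinery that uses it and the sensors of foreign RNA were examined. Ago2, the slicing Argonaute, had 63.2, 48.5 and 54.8 TPM, Ago1 18.2, 16.4 and 18.9 TPM, Ago3 10.2, 8.16 and 10.7 TPM and Ago4 0.177, 0.159 and 0.187 TPM. The 4 Argonautes fell in this order without overlap. Tarbp2 and Dicer1, which load the guide strand, had 120.0, 121 and 116 TPM (Tarbp2) and 48.9, 44.4 and 54.01 TPM (Dicer1). In all 13 of 14 genes were detected. Interferon and RNA sensing genes were detected for 15 of 30, a share of 50% beside 50.1% of all protein-coding genes. The highest were Irf3, an early interferon regulator, at 38.3, 38.4 and 35.7 TPM and Ifnar1, a receptor chain for type I interferon, at 29.4, 25.6 and 26.9 TPM. Irf1, Ifnar2, Mavs and Eif2ak2 had 22.8 ± 0.974, 20.9 ± 1.58, 19.1 ± 1.49 and 16.7 ± 1.21 TPM and overlapped in turn. Ifnb1, Ifng, Mx2 and Tlr8 had 0 counts, which allows up to 0.270, 0.137, 0.0582 and 0.0406 TPM. Interferon-induced genes chosen after their values were seen were below 1 TPM, with Isg15 at 0.617, 0.802 and 0.738, Ifit1 at 0.218, 0.222 and 0.292 and Irf7 at 0.504, 0.313 and 0.314 TPM. No library without siRNA was analysed here, so these levels have no untreated baseline.

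Programs of other cell types were examined with marker lists. No marker reached 1 TPM among 10 endothelial, 9 hepatocyte and 9 Schwann cell and melanocyte genes. The summed levels of these lists were 0.884, 0.635 and 0.815 TPM, 0.540, 0.390 and 0.639 TPM and 2.36, 1.89 and 1.75 TPM in libraries 1, 2 and 3. Pecam1 and Cdh5 of endothelium averaged 0.300 and 0.0261 TPM, and Alb of hepatocytes had 0 counts (up to 0.0729 TPM). In the leukocyte list 1 of 12 was detected, Cd68 at 2.85, 2.54 and 2.2 TPM, while Ptprc averaged 0.0335 TPM and Adgre1 and Tyrobp had 0 counts (up to 0.0432 and 0.395 TPM). In the pluripotency and germ cell list 1 of 11 was detected, Sox2 at 2.26, 2.06 and 2.69 TPM, and Pou5f1 had 0 counts (up to 0.118 TPM).

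Other lists had a few high members beside absent defining genes. Of 12 neuronal genes 5 were detected: Nefl and Nefm, neurofilament subunits, had 269, 265 and 274 TPM (Nefl) and 89.5, 82.2 and 82.6 TPM (Nefm), Tubb3 185, 177 and 182 TPM, Stmn2 37.01, 35.2 and 37.5 TPM and Map2 12.5, 10.6 and 11.2 TPM. The synaptic and nuclear markers Syp, Snap25, Syt1 and Rbfox3 averaged 0.156, 0.0234, 0.00183 and 0.00698 TPM, and Gad1 had 0 counts (up to 0.0385 TPM). Of 8 erythroid genes 2 were detected, the alpha globins Hba-a1 at 78.5, 87.5 and 72.99 TPM and Hba-a2 at 19.1, 14.5 and 20.5 TPM, which are near-identical genes. Their sum is firmer than their split, whose ratio ran from 3.56 to 6.04. The beta globins Hbb-bs and Hbb-bt had 0 counts (up to 0.362 and 0.299 TPM), as had Gata1 (up to 0.0788 TPM). Of 14 epithelial genes the keratins Krt19 and Krt14 had 38.6, 43.7 and 39.4 TPM (Krt19) and 12.6, 10.9 and 10.3 TPM (Krt14), whereas the other listed keratins Krt8, Krt18 and Krt5 averaged 0.176, 0.0234 and 0.00462 TPM and Cdh1 and Epcam 0.0546 and 0.0165 TPM.

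Lists of other mesenchymal lineages were detected in part. Smooth muscle genes were detected for 6 of 9, with Acta2 at 355, 367 and 356, Smtn at 80.3, 68.4 and 69.8, Tagln at 55.3, 59.9 and 53.03 and Actg2 at 39.7, 42.4 and 41.1 TPM, but Myh11, the smooth muscle myosin, was at 0.0126, 0.0169 and 0.0137 TPM and the master factor Myocd at 0.987, 0.832 and 0.136 TPM. Fibroblast and fibroadipogenic genes were detected for 6 of 12, a share close to the 50.1% of all protein-coding genes, with Ly6a (a surface antigen of mesenchymal progenitors) at 168, 202 and 194 and Pdgfrb at 39.6, 38.2 and 40.6 TPM, while Pdgfra had 2.12, 2.04 and 1.78, Thy1 3.88, 2.03 and 2.27 and Osr1 2.96, 3.91 and 4.22 TPM. Sox9 and Runx2, regulators of cartilage and bone, had 54.3, 42.9 and 51.5 TPM (Sox9) and 29.4, 28.2 and 30.4 TPM (Runx2), and their lineage products Col2a1 and Alpl averaged 0.0665 and 0.00394 TPM, while Ibsp had 0 counts (up to 0.0715 TPM). Pparg of adipocytes had 24.6, 22.97 and 25.3 TPM and Lpl 5.08, 4.397 and 5.76 TPM, and Fabp4, Plin1 and Adipoq averaged 0.150, 0.0545 and 0.0186 TPM. Gata4, Nppb and Nkx2-5 of heart had 15.4, 14.3 and 15.1 TPM (Gata4), 6.25, 6.16 and 5.31 TPM (Nppb) and 2.15, 1.66 and 1.86 TPM (Nkx2-5), and of the contractile genes of heart Myh6 averaged 0.0377 TPM and Myl7 had 0 counts (up to 0.403 TPM). Whether these levels come from all cells or a few was not tested.

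**Figure D5:**
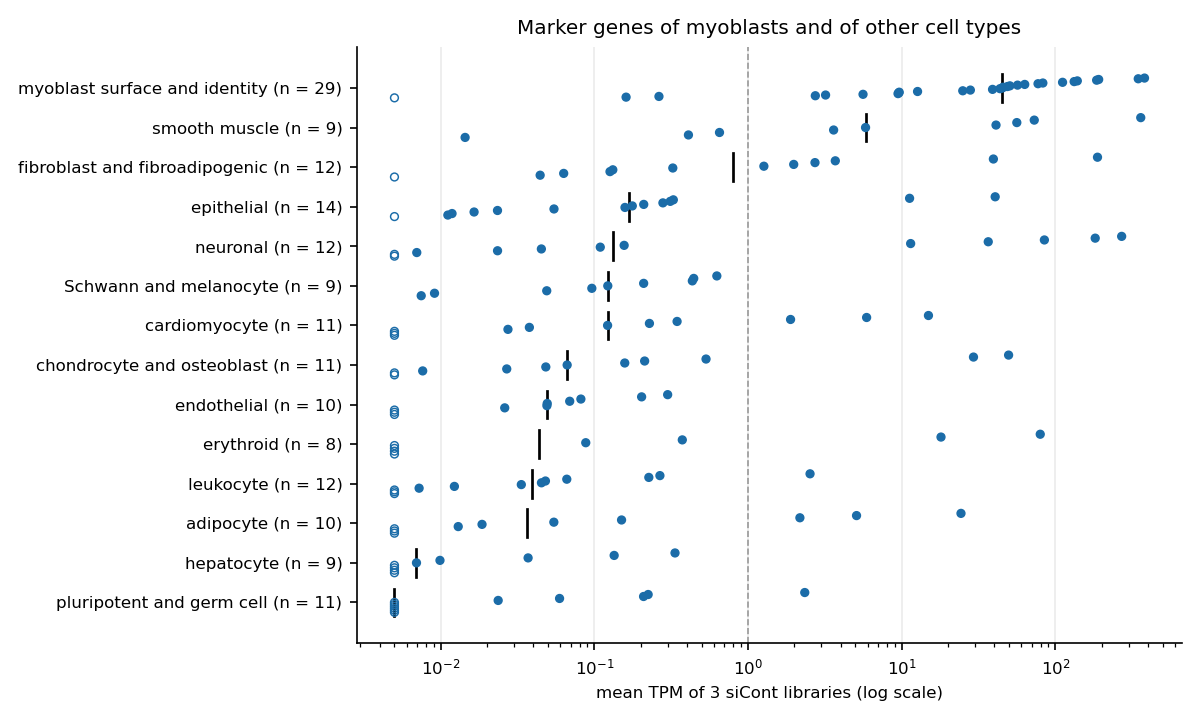
Mean TPM of the 3 siCont libraries (log axis) for the myoblast surface and identity list and the marker lists of other cell types. Each row is a list, each point a gene and the black bar the median of the list. The dashed line is 1 TPM and open points are values under 0.005 TPM. The myoblast surface and identity list has a median of 45.1 TPM, the smooth muscle list 5.81 TPM, and each other list a median below 1 TPM. The myoblast row holds receptor and adhesion genes such as Itgb1, Igf1r and Notch2, and not Myod1, Myf5, Myog or Pax7. The lists therefore differ in kind, and their medians are not directly comparable.

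Among glycolytic genes 22 of 31 were detected, with Gapdh, Pkm and Ldha at 3038, 2908 and 2884 TPM (Gapdh), 2419, 2395 and 2391 TPM (Pkm) and 1158, 1166 and 1132 TPM (Ldha). A single annotated transcript held 87.6% of the TPM of Pkm. Ldha, Aldoa and Eno1, of lactate production and glycolysis, overlapped in turn at 1152 ± 17.9, 1104 ± 28.9 and 1094 ± 45.8 TPM. Eno1b, a separate gene outside this list, had 1245 TPM alone and 1448 TPM summed with its near copy. Near copies were searched for among pseudogenes only, and whether Eno1 and Eno1b share reads was not tested. Hk3 and Pgk2, forms known from blood or testis, had 0 counts, which allows up to 0.0435 and 0.0949 TPM. Chaperones were detected for 29 of 31, led by Ppia, a prolyl isomerase, at 2950.2 ± 99.8 TPM, Hsp90ab1 at 2481 ± 69.3 TPM, Hspb1 at 2118 ± 98.3 TPM and Hspa8 at 1980.1 ± 62.6 TPM. With near copies summed, Ppia had 4641 and Hspa8 3328 TPM, which puts Hspa8 above Hsp90ab1 and Hspb1. Immediate early factors were detected for 17 of 22, with Atf4, the amino acid response factor, at 358, 391 and 359.6 TPM, and Fosl1 and Jund at 172 ± 10.2 and 119 ± 4.18 TPM. Fos itself, named after its value was seen, was at 0.921, 0.695 and 0.652 TPM.

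Few genes separated the siCont libraries. Of the 8330 genes at a mean of 10 TPM or more, 86 (1.03%) differed by more than 1.5-fold between the highest and lowest library. Of these 54 were annotated as protein-coding and the rest as pseudogenes. Library 1 was highest for 42 of the 86, library 3 for 28 and library 2 for 16. The most variable by the SD of log2(TPM + 1) were copies or predicted genes: Rpl31-ps8 at 3.2e-07, 127 and 0.0737 TPM, Gm8325 at 11.6, 25.4 and 0 TPM, Pgam1-ps2 at 5.497, 42.8 and 9.55 TPM, Gm10925 at 15.7, 2.44 and 13.8 TPM and Gm10974 at 34.2, 8.16 and 15.5 TPM. They were followed by Gm4332, Tma7-ps, Gm6361, Gm10985 and the histone gene Hist1h4n. The differences of Rpl31-ps8 and Gm8325 rest on the first run: over the 3 libraries Rpl31-ps8 averaged 84.4 TPM in the first run and 0.0449 TPM in the second, and Gm8325 24.5 and 0.144 TPM. Without library 2 the mean of Rpl31-ps8 was 0.0368 TPM, that of Gm8325 5.80 TPM and that of Pgam1-ps2 7.52 TPM. Over 2 libraries at a time, the count over 1.5-fold was 43 without library 1, 41 without library 2 and 53 without library 3. Genes with main transcripts of 4000 bases or more were lower in library 2, with a median log2 ratio of -0.159 to the mean of the other libraries, against 0.0745 in library 1 and 0.0728 in library 3, each over 2054 genes.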

How the data were processed

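RNA of C2C12 cells was sequenced as poly(A)-selected libraries, per the labels' protocols, and reads were assigned to mouse transcripts (mm10) with kallisto 0.44.0, per the submitters' processing notes. Each deposited table lists an estimated count, a TPM and an effective length per transcript, as the authors' program wrote them. The estimated counts deposited by the authors share reads that match several transcripts between them by an estimate, and the TPM values deposited by the authors divide those counts by effective length and sum to a fixed total in each run. Trimming and read filters are not given in the sources used here. In the siCont libraries, summed over both runs, 33171287 to 43256322 counts were available. A count of 0 allows up to 3 counts, converted to TPM on the longest transcript, and such limits cover counting error only.

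Transcript identifiers were looked up in GENCODE M21, and 116816 of 118489 were found. The unmatched ones carried 0.611% to 0.617% of the counts and were left out. TPM was added up over the transcripts of each of 36047 genes, averaged over both runs, and given as mean ± SD over 3 libraries (Python 3.11.15, pandas 2.3.3, numpy 2.4.6, matplotlib 3.10.9). No test between groups was made, and estimated counts served only for depth and zeros. A gene was detected at 1 TPM or more in each library. Near copies were found with BLAST+ 2.17.0, and sequences were read with Biopython 1.88. Promoters are those of RefSeq, GRCm38.p6. The summing, detection and 1.5-fold steps were tested on simulated counts in which transcripts shared no reads. Rankings and shares were not tested in this way.

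The members and gene lists were chosen with earlier results of these data known. Named genes were the 20 highest, all members of lists of up to 20 genes, the 6 highest and those at 0 counts of longer lists, and the 10 most variable at a mean of 10 TPM or more. Other named genes were chosen after their values were seen. A few listed genes are not reported here, though the counts of detected members include them. Long noncoding RNAs of the imprinted list had no matching entry among the deposited values and were not analysed. Of the 36047 genes, 22028 were protein-coding and 13525 were pseudogenes. Levels, shares and detected genes therefore cover mainly these kinds, and few noncoding RNAs. Alternatives were either run alone, TPM from summed counts, other detection minimums and filters, count shares, TPM without mitochondrial genes, near copies summed, and each library left out.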

Additional observations from a re-analysis of the deposited data

How the results depend on the processing

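The number of detected genes, 11425, stayed between 10644 (2 TPM) and 12245 (0.5 TPM), and between 11525 and 11593 with 1 library left out. The share of the 10 most abundant genes was 5.26% as a share of estimated counts, without correction for length, and 7.80% with near copies summed with the gene they resemble, an alternative chosen after seeing the data. The share of the 100 most abundant genes was 18.2% of estimated counts, 30.3% without mitochondrial genes and 33.1% with near copies summed. The mitochondrial share was 1.80% of estimated counts and 5.16% with near copies summed. With 1 library left out, these shares were 7.0% to 7.03%, 30.8% to 31.3% and 3.66% to 3.95%.

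The count of 86 genes over 1.5-fold between libraries depended most on the settings: it was 326 in the first run alone, 986 at a mean of 1 TPM or more, 1422 with no filter and a pseudocount of 1, 6680 with a pseudocount of 0.1, and 41 to 53 with 1 library left out, where fewer libraries are compared. It was 127 in the second run alone, 71 from summed counts and 62 with near copies summed. Of 64 lists, 2 changed by more than 1.5-fold in their number of detected members at 2 TPM. There, 9 sarcomere genes and 0 Hoxb genes were counted. Such a change also occurred in 1 list with either run alone, where 1 Hoxb gene was counted, and in 1 at 0.5 TPM. Smaller changes are left out of these numbers. The sarcomere count of 16 was 14 in the first run, 15 in the second, 24 at 0.5 TPM and 20 without library 2. For the myogenic factors, the count of 3 was 2 in the first run and at 2 TPM. Of 601 named levels, 57 moved by over 1.5-fold in the first run alone and 69 in the second, 6 from summed counts, 23, 19 and 29 without library 1, 2 or 3, and 0 of 588 without mitochondrial genes. With near copies summed 7 did so, among them Rbpj, whose mean was 36.5 TPM alone and 94.4 TPM with its copies. The counts for either run alone include levels under 1 TPM. At a mean of 1 TPM or more, only Rpl31-ps8, Gm8325 and Gm10925 moved by over 1.5-fold in the first run. In the second run these genes, Tma7-ps and Gm10985 did. No paired analysis was possible because the results come from no test. Genes near 1 TPM, short genes and genes with near copies are where depth and multiple matching limit the values. Only 3 libraries were available, and whether they came from separate cultures is not given in the sources used here.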

Other observations

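Values of 2 further kinds fit no group above, and the genes were chosen after their values were seen. Gm12895 and Gm12896, annotated as processed pseudogenes on chromosome 4, were each listed at 2035, 1651 and 3698 TPM in siCont libraries 1, 2 and 3. Lars2, which encodes the mitochondrial leucyl-tRNA synthetase, had 1049 (library 1), 792 (library 2) and 1747 (library 3) TPM, and 87.3% of it came from a transcript annotated as a target of nonsense-mediated decay. These genes were highest in library 3 and lowest in library 2, as were mt-Co1 and mt-Atp6. A BLAST+ search of the main transcripts of Lars2, Gm12895 and Gm12896 found no match to a mitochondrial transcript. What else these genes share with mt-Co1 and mt-Atp6 was not tested.

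Of 183 protein-coding genes on chromosome Y in the tables, 3 were detected (1.64%), against 340 of 948 on chromosome X (35.9%). The Y-linked genes Uty and Kdm5d averaged 0.253 and 0.178 TPM, and Gm47283, annotated on Y, had 383, 309 and 301 TPM. Of 27 imprinted and long noncoding genes listed, 6 were measured and 3 detected (50%, beside 50.1% of all protein-coding genes). Peg3, a zinc finger factor expressed from the paternal allele, had 57.8, 48.2 and 54.0 TPM, Peg10 averaged 32.9 TPM and Mest 4.63 TPM. Plagl1 and Grb10 averaged 0.608 and 0.0239 TPM, and Dlk1, which rises in regenerating muscle, had 0 counts, which allows up to 0.0293 TPM.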
